A study of Homo sapiens with 15 samples.

Results

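The genes of homologous recombination and of the Fanconi anemia pathway were examined in 5 sublines of VCaP, an established human prostate cancer cell line that carries the TMPRSS2-ERG fusion. A fixed list of 40 genes was matched by symbol to the 58381 gene identifiers of the counts, of which 38661 were counted at least once. All 40 genes were found, 39 of them had counts and were tested, and MDC1 was at 0 in every library. Bulk RNA-seq was available for 15 libraries, 3 replicates of each subline. The study derived the sublines in a chain. VCaP-T was kept for 7 months in 10 nM testosterone and is labelled androgen sensitive. VCaP-CT was then grown from VCaP-T for 10 months in testosterone that the protocol gives as 0.1 nM, whereas the treatment label of VCaP-CT and of all later sublines gives 10 nM. VCaP-CT-ER was grown out of VCaP-CT under 10 µM enzalutamide and VCaP-CT-BR under bicalutamide, which are both antiandrogens. VCaP-CT-BR-ER came from the bicalutamide-insensitive cells under enzalutamide, and the treatment label of VCaP-CT-BR mentions enzalutamide as well. All sublines share RPMI 1640 medium with DCC-FBS, and the 4 later ones are labelled resistant. Each subline was derived once, so that effects of the agent, of months in culture and of the single derivation cannot be told apart, and p-values measure only the spread between libraries of 1 derivation.

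Homologous recombination repairs a broken chromosome by copying the sister chromatid and is therefore used in S and G2 phase. The ends are cut back to single strands, BRCA1, PALB2 and BRCA2 help to load the strand-exchange filament, and helicases and nucleases resolve the joined molecules. The Fanconi pathway removes links between the strands of DNA: a core complex with the enzyme UBE2T ubiquitinates the FANCD2-FANCI pair, which calls in nucleases and the recombination proteins. In prostate cancer, inherited or acquired loss of such genes is tested for in the clinic because tumours without them can respond to inhibitors of PARP1.

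Library totals lay between 33665716 and 46935279 counted fragments. A count of 3, taken as the floor, was 0.0639 to 0.0891 CPM (counts scaled to the library's total), and the tested repair genes had at least 59 counts in each library. Log2 CPM correlated at 0.995 or more within sublines and at 0.983 or less between them, across genes, which are not independent replicates. The labelled cell line was met by its markers: ERG was at 248 to 528 CPM in the subline means, and FOXA1, HOXB13, EPCAM, KRT8 and KRT18 were all above 200 CPM. Among markers of other cells, COL1A2 and CD3E were at 0 and PTPRC had at most 2 counts, but LUM, a stromal proteoglycan, had subline means of 0.752 CPM for VCaP-T, 6.16 for VCaP-CT, 200 for VCaP-CT-ER, 23.5 for VCaP-CT-BR and 234.5 for VCaP-CT-BR-ER. PECAM1, of endothelium, was at 2.92 CPM and COL1A1, a stromal collagen, at 6.52 CPM in VCaP-T, with at most 128 and 309 counts in any library, and both were lower in all later sublines. The part of these genes in the results was not tested.

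The repair genes, taken as a sum, were lowest in VCaP-T. Summed over the genes with counts, they took 1396 to 1471 CPM in the VCaP-T libraries, 1642 to 1682 for VCaP-CT, 2125 to 2189 for VCaP-CT-ER, 2016 to 2086 for VCaP-CT-BR and 2144 to 2259 for VCaP-CT-BR-ER. Neither VCaP-T nor VCaP-CT overlapped any other subline in this sum, and the sublines grown out under an antiandrogen lay close together. Of 39 genes, 25 had their lowest mean in VCaP-T and 7 in VCaP-CT. In 20 genes all 3 VCaP-T libraries lay below the 12 others, and in 6 genes this held for VCaP-CT. The highest mean fell to VCaP-CT-ER in 13 genes, to VCaP-CT-BR in 11 and to VCaP-CT-BR-ER in 11. These counts of lowest, highest and separate levels were not made over all tested genes. They describe the members and cannot be read as particular to them.

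**Figure D1:**
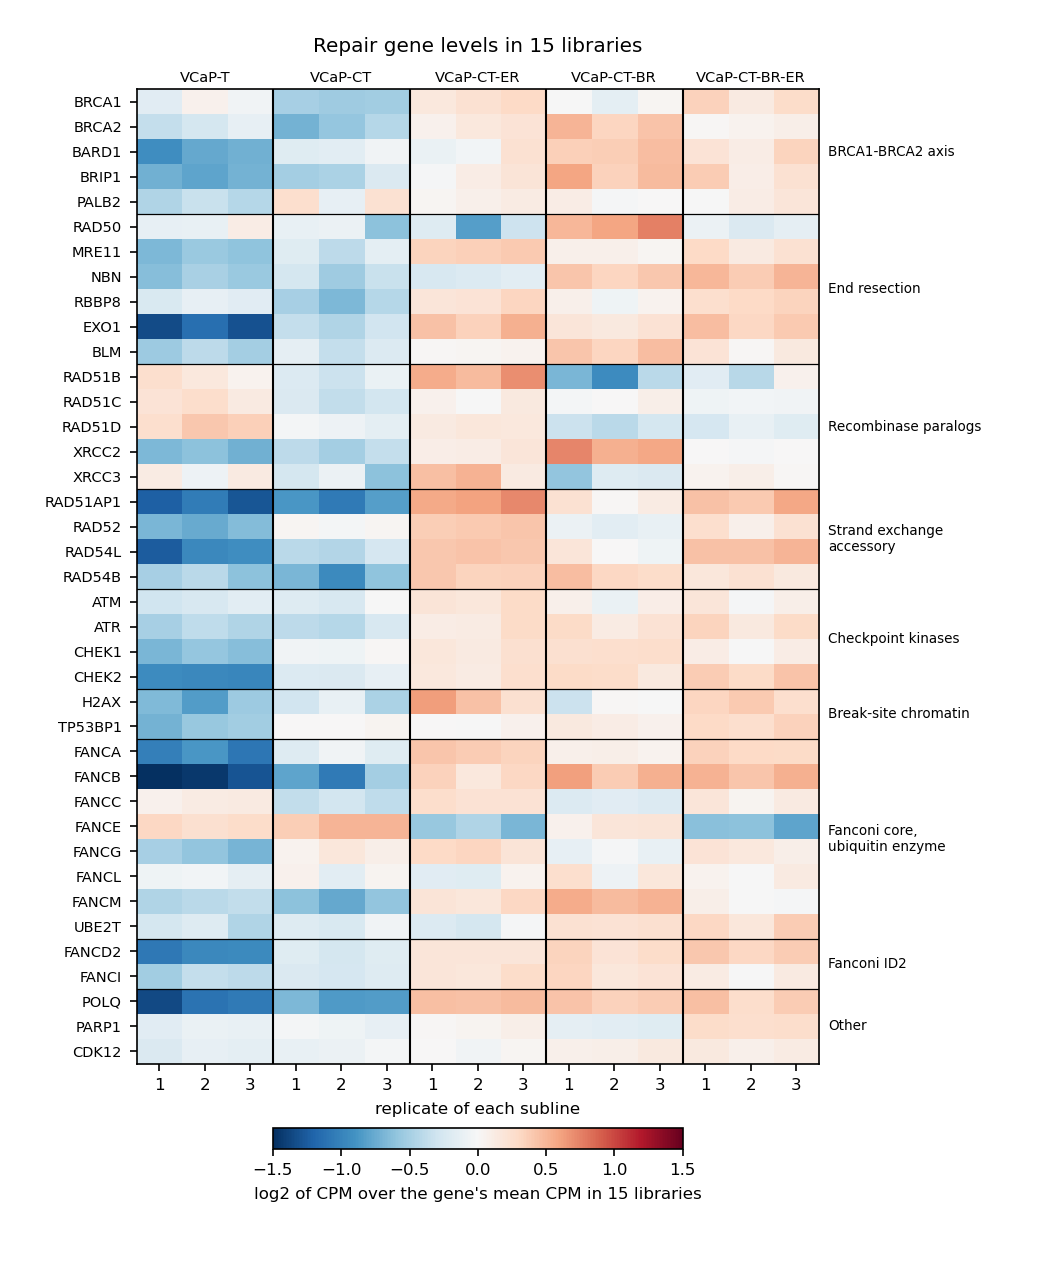
Each row is a repair gene with counts, grouped by role, and each column 1 of the 15 libraries, with the colour giving log2 of the CPM over the gene's mean CPM in all libraries. The VCaP-T columns are the bluest in most rows, with exceptions such as RAD51C, RAD51D and FANCE, and replicates of a subline resemble each other.

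Changes between sublines were tested with the quasi-likelihood test of edgeR on 19621 genes, and a gene was called when its Benjamini-Hochberg adjusted p was below 0.05. From VCaP-T to VCaP-CT, 22 of the 39 repair genes were called higher and 9 lower, where 33.1% of all tested genes were called higher and 32.2% lower. The median log2 fold change of the repair genes was 0.21, against 0.03 over all genes. From VCaP-CT to VCaP-CT-ER, 28 were called higher and 1 lower, against 29.6% and 31.2% of all genes, with a median of 0.38 against −0.02. From VCaP-CT to VCaP-CT-BR, 26 were called higher and 5 lower, against 26.1% and 27.0%, with a median of 0.39 against −0.02. These 3 comparisons share the VCaP-CT libraries, and the last of them shares the VCaP-CT-BR libraries with the next. At the step from VCaP-CT-BR to its enzalutamide-grown descendant VCaP-CT-BR-ER, called the later enzalutamide step here, 15 were called higher and 9 lower, against 21.2% and 21.7%, with a median of 0.07 against 0.00. Most changes were small. A call together with an estimated change of at least 2-fold was made for 0 of the 39 genes from VCaP-T to VCaP-CT, where 8.60% of all tested genes rose and 12.2% fell so far. It was made for 3 higher and 1 lower in VCaP-CT-ER, against 7.96% and 9.58% of all genes, and for 6 higher and 0 lower in VCaP-CT-BR, against 2.95% and 7.01%. At the later enzalutamide step it was made for 0 of the genes, against 4.21% and 3.77%. Of the tested genes, 31 share under 10% of their exonic bases with another annotated gene, and of these 19 were called higher and 8 lower at the first step, 23 and 1 at the step to VCaP-CT-ER, 21 and 5 at the step to VCaP-CT-BR, and 11 and 8 at the later enzalutamide step. Beside each change printed below, the median log2 fold change of the tested genes within 5 Mb of the member is given where it was past 0.2 in size at that step, and the part of these neighbours in the change was not tested.

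**Figure D2:**
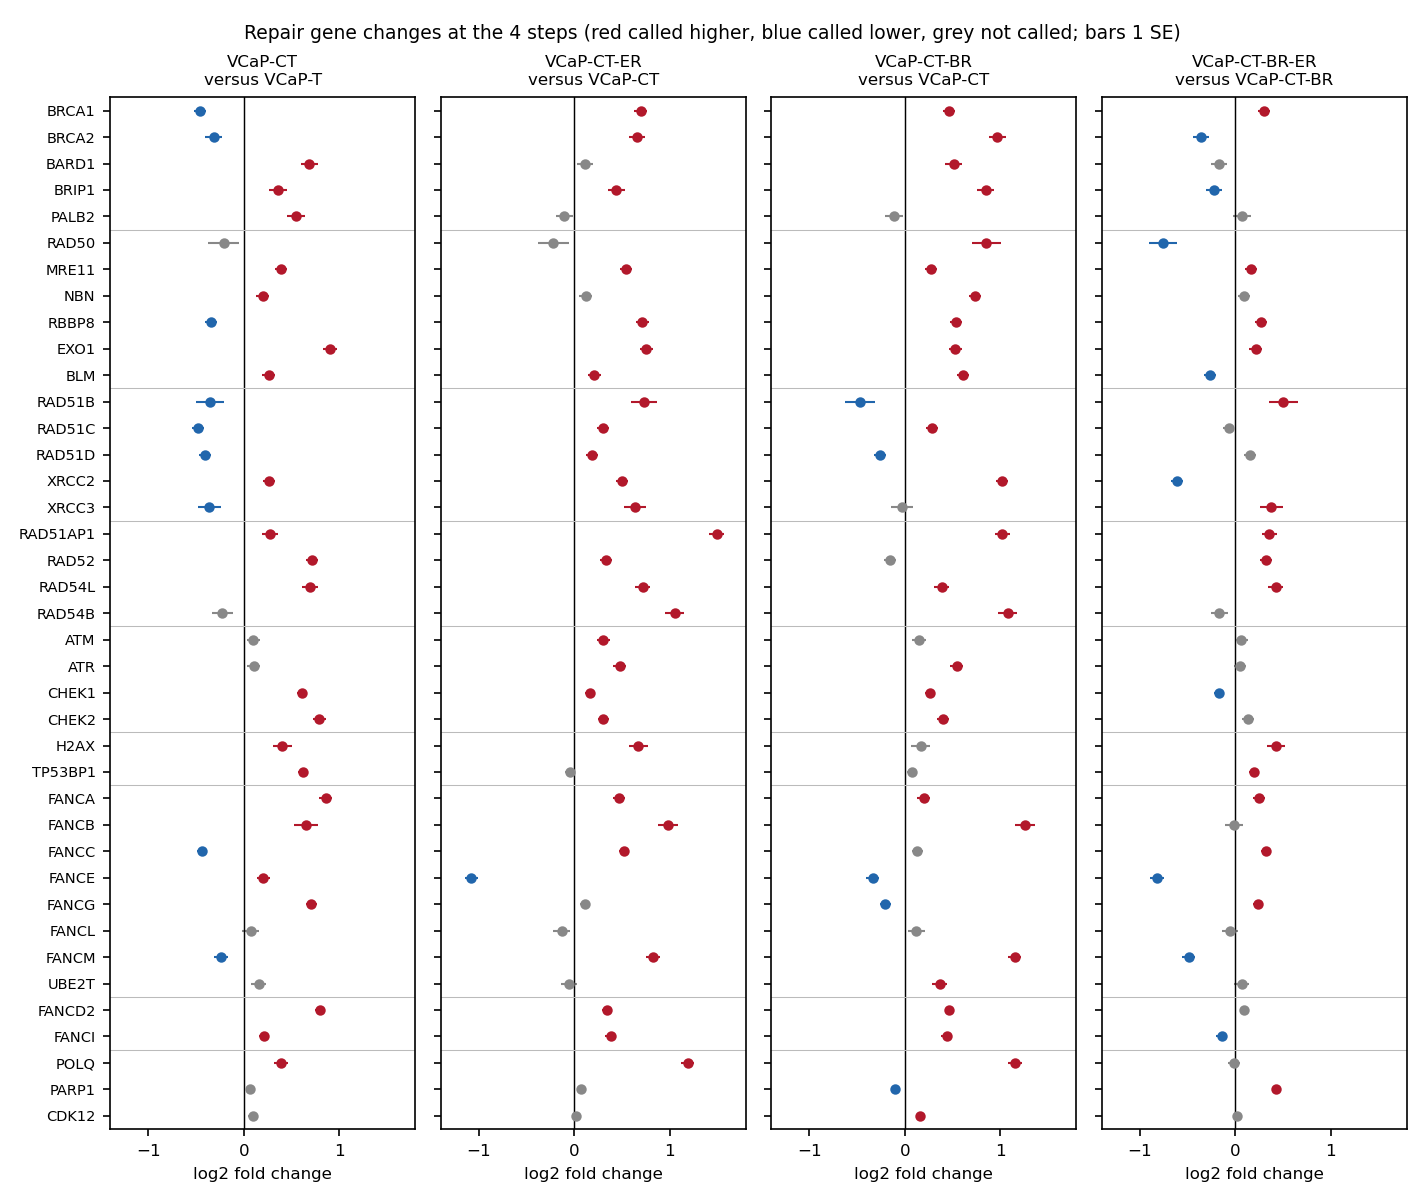
Log2 fold changes of the 39 tested repair genes at the 4 steps between sublines, with bars of 1 SE and genes grouped by role in the order of the heat map of levels. Red points are called higher, blue points called lower and grey points not called. Red points number 22, 28, 26 and 15 from left to right.

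Cell cycle genes moved in the same samples. Of 39 tested S-phase genes that are no members of the list, 30 were called higher and 3 lower at the step to VCaP-CT, 19 and 5 at the step to VCaP-CT-ER, 31 and 1 at the step to VCaP-CT-BR, and 17 and 4 at the later enzalutamide step. Of 54 G2/M genes, 27 were called higher and 7 lower, then 48 and 1, 51 and 1, and 20 and 15 at the same steps. The summed level of the S-phase genes was 2136 ± 48.8 CPM for VCaP-T, 2846 ± 68.8 for VCaP-CT, 3395 ± 76.2 for VCaP-CT-ER, 3630 ± 42.3 for VCaP-CT-BR and 3821 ± 79.7 for VCaP-CT-BR-ER (SD, n = 3). The summed level of the G2/M genes was 4129 to 4593 CPM in VCaP-T and 4824 to 5049 in VCaP-CT, and 7970 to 9031 in the 3 sublines grown out under an antiandrogen. In bulk samples a larger share of cells in S or G2 phase and more RNA per cell cannot be told apart. The part of the cell cycle in the changes of the repair genes was not tested.

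**Figure D3:**
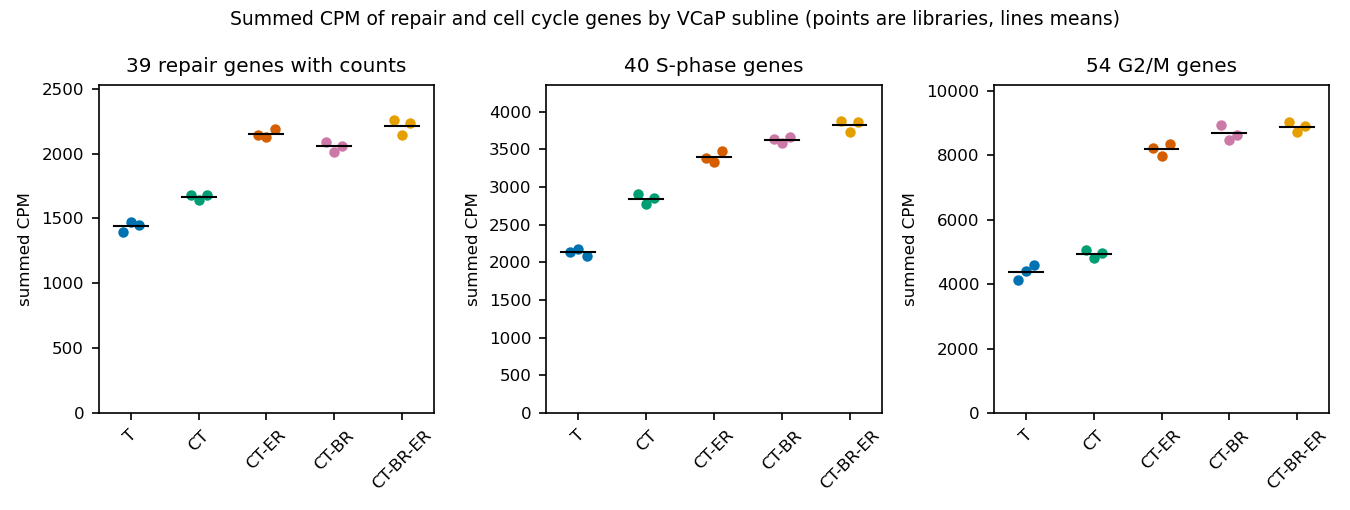
Summed CPM of the repair genes, of S-phase genes and of G2/M genes in each library (points) with the mean of each subline (lines); the vertical axes start at 0. All 3 sums are lowest in VCaP-T, and the step from VCaP-CT to the antiandrogen-grown sublines is largest, relative to its level, for the G2/M genes.

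Promoters of the members were read from RefSeq (GRCh38.p14), as windows from 250 bases before to 50 bases after each start, because E2F factors are known to drive many genes of S phase through sites of this kind. Of the 40 genes, 37 matched the table, and NBN, RAD54B and FANCI did not. Any of the E2F core words TTCCCGC or TTCGCGC or TTGCCGC or TTGGCGC, read on both strands, occurred in 20 of 37 genes (54.05%), against 15.27% of 27305 genes with such windows. The word TTTGAA or TTTAAA of the CHR element, which is known from G2/M genes, occurred in 10 of 37 (27.03%), against 27.85% of all. The genes behind the shares over all were not matched to the members by gene type or base composition. A match describes letters and is not a binding site, and no binding was measured in these libraries. The 6 windows with an E2F core word in the last 60 bases before the start are shown 5′ to 3′ on the gene's strand, with the word in capitals, since they belong to genes that moved in opposite directions at the step from VCaP-T to VCaP-CT.
RAD51AP1 (chr12:4538830-4538889, plus strand): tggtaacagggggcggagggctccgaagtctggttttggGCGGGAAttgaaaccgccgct
RAD54L (chr1:46247628-46247687, plus strand): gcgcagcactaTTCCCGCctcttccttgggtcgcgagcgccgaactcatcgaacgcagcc
BRCA1 (chr17:43125365-43125424, minus strand): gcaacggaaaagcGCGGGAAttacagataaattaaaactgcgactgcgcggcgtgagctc
FANCC (chr9:95317710-95317769, minus strand): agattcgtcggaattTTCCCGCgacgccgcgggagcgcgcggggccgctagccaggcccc
RAD51D (chr17:35119759-35119818, minus strand): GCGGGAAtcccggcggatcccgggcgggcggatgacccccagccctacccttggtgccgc
PARP1 (chr1:226408094-226408153, minus strand): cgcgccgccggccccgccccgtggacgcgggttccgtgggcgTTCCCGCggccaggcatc
Of these, RAD51AP1 and RAD54L were called higher in VCaP-CT than in VCaP-T, BRCA1, FANCC and RAD51D were called lower, and PARP1 was not called. The word therefore stood in the promoters of genes with each of the 3 outcomes.

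BRCA1 (chromosome 17, 43044295 to 43170245 of GRCh38), the ubiquitin ligase that steers broken ends towards recombination, had its lowest level in VCaP-CT. Its libraries held 51.3, 60.1 and 55.5 CPM for VCaP-T and 40.6, 39.7 and 40.1 CPM for VCaP-CT. They held 64.4, 67.3 and 70.6 CPM for VCaP-CT-ER, 57.3, 52.1 and 58.5 for VCaP-CT-BR and 72.9, 63.03 and 69.7 for VCaP-CT-BR-ER. The 3 VCaP-CT libraries lay below all others, VCaP-CT-BR overlapped VCaP-T, and the enzalutamide-grown sublines overlapped each other. BRCA1 fell from VCaP-T to VCaP-CT (log2 fold change −0.46 ± 0.07 (SE), edgeR adjusted p = 3.54e-06). It rose to VCaP-CT-ER (log2 fold change 0.70 ± 0.07 (SE), edgeR adjusted p = 9.95e-09), to VCaP-CT-BR (log2 fold change 0.46 ± 0.07 (SE), edgeR adjusted p = 6.04e-06) and at the later enzalutamide step (log2 fold change 0.30 ± 0.07 (SE), edgeR adjusted p = 0.000824). The 194 tested neighbours within 5 Mb of BRCA1 had a median log2 fold change of −0.26 from VCaP-T to VCaP-CT. Over the 5 subline means of log2 CPM, the members most like BRCA1 were RBBP8 (Pearson r = 0.977), FANCC (0.871), RAD54B (0.802), RAD51AP1 (0.751) and XRCC3 (0.729), given as a description over 5 points that share their libraries.

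BRCA2 (chromosome 13, 32315474 to 32400266), which loads the filament on single strands, peaked in VCaP-CT-BR. Its levels were 7.87, 8.37 and 9.22 CPM for VCaP-T, 6.12, 6.74 and 7.44 for VCaP-CT and 10.5, 11.2 and 11.6 for VCaP-CT-ER. In VCaP-CT-BR they were 14.3, 12.5 and 13.5 CPM, and in VCaP-CT-BR-ER 10.2, 10.4 and 10.7 CPM. All VCaP-CT libraries lay below and all VCaP-CT-BR libraries above the rest. BRCA2 fell from VCaP-T to VCaP-CT (log2 fold change −0.32 ± 0.09 (SE), edgeR adjusted p = 0.00428) and rose from VCaP-CT to VCaP-CT-ER (log2 fold change 0.66 ± 0.09 (SE), edgeR adjusted p = 1.38e-06) and to VCaP-CT-BR (log2 fold change 0.97 ± 0.09 (SE), edgeR adjusted p = 8.5e-09). It fell at the later enzalutamide step (log2 fold change −0.36 ± 0.08 (SE), edgeR adjusted p = 0.00123). FANCM (Pearson r = 0.99), RAD54B (0.945), XRCC2 (0.879), ATR (0.838) and BRIP1 (0.825) were the members most like BRCA2 over the 5 subline means.

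PALB2 (chromosome 16, 23603160 to 23641310), the bridge between BRCA1 and BRCA2, moved at the first step only in the tests made. It had 8.74, 9.43 and 8.85 CPM for VCaP-T and 14.2, 10.9 and 13.95 CPM for VCaP-CT, and 11.8 to 13.5 CPM in the 9 later libraries. PALB2 rose from VCaP-T to VCaP-CT (log2 fold change 0.54 ± 0.09 (SE), edgeR adjusted p = 2.78e-05), where its 90 tested neighbours had a median of 0.31, and the VCaP-T libraries lay below all others. The later steps gave −0.11, −0.11 and 0.07, with edgeR adjusted p of 0.314, 0.310 and 0.569. Without VCaP-CT replicate 2, its lowest library there, PALB2 was called lower in VCaP-CT-ER (log2 fold change −0.21, edgeR adjusted p = 0.0260) and in VCaP-CT-BR (−0.22, edgeR adjusted p = 0.0320). BARD1, the partner of BRCA1 in the ligase, rose from a mean of 11.4 CPM for VCaP-T to 18.2 for VCaP-CT and 26.2 for VCaP-CT-BR, where its 81 tested neighbours had medians of 0.32 and −0.26 for these rises. BRIP1, a helicase that binds BRCA1, rose from 13.3 to 16.95 CPM at the first step, and was at 23.8 CPM for VCaP-CT-ER and 30.9 CPM for VCaP-CT-BR, both called higher than VCaP-CT. The 108 tested neighbours of BRIP1 had a median of −0.31 at the first step. Within this group of 5 genes, BRCA1 and BRCA2 fell from VCaP-T to VCaP-CT while BARD1, BRIP1 and PALB2 rose.

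**Figure D4:**
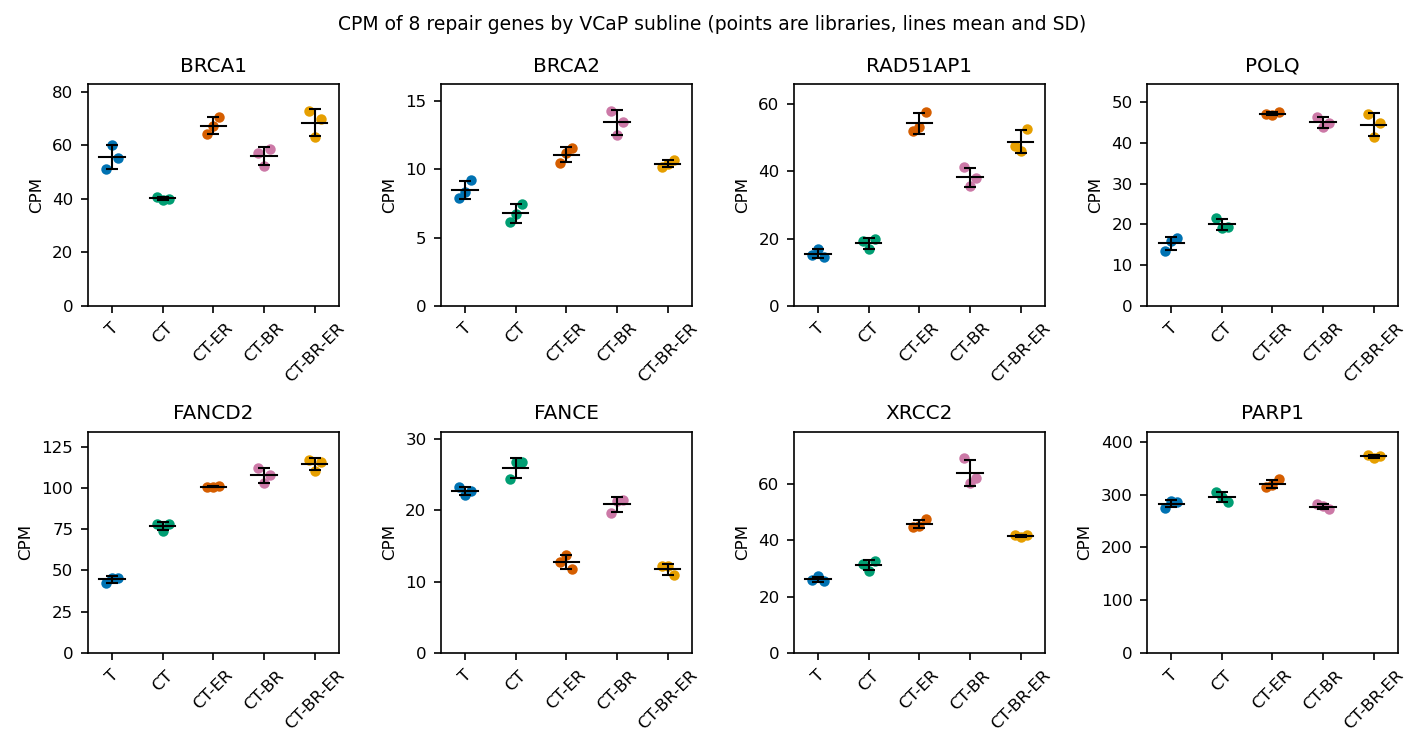
CPM of 8 repair genes in each library (points) with the mean and SD of each subline (lines, n = 3); the vertical axes start at 0. BRCA1 and BRCA2 dip in VCaP-CT, RAD51AP1 and POLQ jump in the sublines grown out under an antiandrogen, FANCD2 rises from VCaP-T to VCaP-CT, and FANCE is lowest in the enzalutamide-grown sublines.

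End resection is carried out by the MRE11, RAD50 and NBN complex with RBBP8 (also called CtIP), followed by EXO1 and by BLM. Of these 6 genes, 4 were called higher and 1 lower from VCaP-T to VCaP-CT, against 33.1% and 32.2% of all tested genes. In VCaP-CT-ER against VCaP-CT, 4 were called higher and 0 lower, against 29.6% and 31.2%. In VCaP-CT-BR against VCaP-CT, all 6 were called higher, against 26.1% of all tested genes. EXO1 (chromosome 1, 241847967 to 241895148), the exonuclease of long-range resection, rose more than any other member at the first step. Its levels were 12.6, 14.6 and 12.9 CPM for VCaP-T, 25.1, 23.5 and 26.2 for VCaP-CT, 43.5, 40.7 and 46.5 for VCaP-CT-ER, 36.3, 35.6 and 37.2 for VCaP-CT-BR and 44.2, 39.7 and 42.2 for VCaP-CT-BR-ER. VCaP-T lay below all other libraries and VCaP-CT between it and the rest. EXO1 rose from VCaP-T to VCaP-CT (log2 fold change 0.91 ± 0.07 (SE), edgeR adjusted p = 5.93e-10), to VCaP-CT-ER (log2 fold change 0.75 ± 0.07 (SE), edgeR adjusted p = 4.58e-09) and to VCaP-CT-BR (log2 fold change 0.53 ± 0.07 (SE), edgeR adjusted p = 1.66e-06). The later enzalutamide step gave a smaller rise (log2 fold change 0.21 ± 0.07 (SE), edgeR adjusted p = 0.0125), a call that was lost without VCaP-CT-BR-ER replicate 1 (0.0564). RBBP8, the nuclease cofactor that starts resection, followed BRCA1, with means of 38.5, 30.1, 51.1, 44.2 and 53.1 CPM in the order of the heat map of levels, and was called at every step, with a median of −0.23 for its neighbours at the first. MRE11, the nuclease of the complex, was at 30.2 CPM for VCaP-T, 39.2 for VCaP-CT and highest in VCaP-CT-ER, at 59.3, and its neighbours had medians within 0.2 at both steps. NBN rose mainly in the bicalutamide line, from 46.7 CPM for VCaP-CT to 78.7 for VCaP-CT-BR (log2 fold change 0.73 ± 0.06 (SE), edgeR adjusted p = 5.55e-09) and was still at 83.4 for VCaP-CT-BR-ER. The 46 tested neighbours of NBN had a median of 0.33 at that step. NBN in VCaP-CT against VCaP-T, where its libraries overlapped, was called with an edgeR adjusted p of 0.0110, and the call was lost without replicate 1 of VCaP-T (0.0812) or of VCaP-CT (0.0928). BLM, the helicase that also dissolves joined molecules, was highest in VCaP-CT-BR, at 66.4 ± 3.29 CPM (SD, n = 3), against 36.1 ± 2.14 CPM for VCaP-T, and its rise to VCaP-CT-ER (log2 fold change 0.21 ± 0.07 (SE), edgeR adjusted p = 0.00881) had an adjusted p of 0.0508 without VCaP-CT replicate 2.

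RAD50 (chromosome 5, 132556019 to 132646344), the zinc-hook ATPase of the complex, was counted on few fragments, with 2.79, 2.82 and 3.302 CPM for VCaP-T, 2.82, 2.88 and 1.99 for VCaP-CT and 2.66, 1.71 and 2.47 for VCaP-CT-ER. It had 4.296, 4.598 and 5.16 CPM for VCaP-CT-BR and 2.87, 2.61 and 2.78 for VCaP-CT-BR-ER. VCaP-CT-BR lay above all other libraries, and each of the other sublines overlapped the next in level. RAD50 rose to VCaP-CT-BR (log2 fold change 0.86 ± 0.15 (SE), edgeR adjusted p = 7.52e-05) and fell at the later enzalutamide step (log2 fold change −0.76 ± 0.15 (SE), edgeR adjusted p = 0.000275). Of the exonic bases of RAD50, 79.7% are shared with other annotated genes, the unnamed ENSG00000283782 and TH2LCRR on the other strand, and fragments on such bases were not counted for any of them, so that its level reads low by construction. The 70 tested neighbours of RAD50 had a median log2 fold change of −0.56 at the later enzalutamide step.

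The 5 paralogs of the strand-exchange recombinase, RAD51B, RAD51C, RAD51D, XRCC2 and XRCC3, form complexes that help build and stabilise the filament. Of them 1 was called higher and 4 lower from VCaP-T to VCaP-CT, against 33.1% and 32.2% of all tested genes. All 5 were called higher from VCaP-CT to VCaP-CT-ER, against 29.6% of all tested genes. In VCaP-CT-BR against VCaP-CT, 2 were called higher and 2 lower, against 26.1% and 27.0%. RAD51C (chromosome 17, 58692573 to 58735611) had 35.7, 37.2 and 34.1 CPM for VCaP-T and 26.7, 23.99 and 25.6 for VCaP-CT, without overlap, and 29.6 to 34.4 CPM in the 9 later libraries. It fell at the first step (log2 fold change −0.48 ± 0.06 (SE), edgeR adjusted p = 8.48e-07), where its 91 tested neighbours had a median of −0.30, and rose to VCaP-CT-ER (log2 fold change 0.30 ± 0.06 (SE), edgeR adjusted p = 0.000252) and VCaP-CT-BR (log2 fold change 0.29 ± 0.06 (SE), edgeR adjusted p = 0.000601). RAD51D (chromosome 17, 35092208 to 35121522) was highest in VCaP-T, with 31.2, 34.6 and 33.4 CPM, and had 25.6, 24.9 and 23.7 for VCaP-CT, 28.8, 29.5 and 29.2 for VCaP-CT-ER, 21.01, 19.7 and 21.8 for VCaP-CT-BR and 22.05, 24.1 and 23.1 for VCaP-CT-BR-ER. Its VCaP-T libraries lay above and its VCaP-CT-BR libraries below all others. RAD51D fell from VCaP-T to VCaP-CT (log2 fold change −0.41 ± 0.06 (SE), edgeR adjusted p = 5.01e-06) and from VCaP-CT to VCaP-CT-BR (log2 fold change −0.26 ± 0.06 (SE), edgeR adjusted p = 0.00123), and was called higher in VCaP-CT-ER (log2 fold change 0.19 ± 0.06 (SE), edgeR adjusted p = 0.0114), where its 108 tested neighbours had a median of −0.24.

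XRCC2 (chromosome 7, 152644779 to 152676165) took the opposite course to RAD51D in the bicalutamide line. It had 26.1, 27.2 and 25.4 CPM for VCaP-T, 31.6, 29.2 and 32.6 for VCaP-CT, 44.8, 44.9 and 47.4 for VCaP-CT-ER, 69.1, 60.3 and 62.2 for VCaP-CT-BR and 41.8, 41.2 and 41.7 for VCaP-CT-BR-ER. No 2 sublines next to each other in level overlapped. XRCC2 rose from VCaP-CT to VCaP-CT-BR (log2 fold change 1.02 ± 0.06 (SE), edgeR adjusted p = 2.24e-11) and fell at the later enzalutamide step (log2 fold change −0.61 ± 0.06 (SE), edgeR adjusted p = 4.34e-08), where its 98 tested neighbours had a median of −0.26. RAD51B (chromosome 14, 67819779 to 68730218) was the paralog with the fewest counts per kilobase, at 3.53, 3.305 and 3.07 CPM for VCaP-T, 2.55, 2.37 and 2.76 for VCaP-CT, 4.35, 4.09 and 4.79 for VCaP-CT-ER, 1.84, 1.54 and 2.23 for VCaP-CT-BR and 2.62, 2.21 and 3.09 for VCaP-CT-BR-ER. Its VCaP-CT-ER libraries lay above all others, after a rise from VCaP-CT (log2 fold change 0.73 ± 0.14 (SE), edgeR adjusted p = 0.000106), where its 99 tested neighbours had a median of 0.29. The other calls of RAD51B were lost when certain single libraries were left out. Its fall from VCaP-T to VCaP-CT (log2 fold change −0.35 ± 0.14 (SE), edgeR adjusted p = 0.0382) was lost without VCaP-T replicate 1 or 2 or VCaP-CT replicate 1 or 2 (0.0647 to 0.110). Its fall to VCaP-CT-BR (log2 fold change −0.47 ± 0.16 (SE), edgeR adjusted p = 0.0162) was lost without VCaP-CT replicate 3 (0.0557) or VCaP-CT-BR replicate 2 (0.0869). Its rise at the later enzalutamide step (log2 fold change 0.50 ± 0.15 (SE), edgeR adjusted p = 0.0115), between libraries that overlapped, was lost without VCaP-CT-BR replicate 2 (0.0646) or VCaP-CT-BR-ER replicate 3 (0.0775). XRCC3, which shares 76.7% of its exonic bases with KLC1 on the other strand, was highest in VCaP-CT-ER, at 33.96 ± 4.67 CPM (SD, n = 3) against 21.1 ± 3.79 for VCaP-CT.

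Among the accessory proteins of strand exchange, RAD51AP1 had the largest change of any tested member. RAD51AP1 (chromosome 12, 4538798 to 4560048), which stimulates pairing with the sister duplex, had 15.1, 16.98 and 14.4 CPM for VCaP-T and 19.2, 16.8 and 19.8 for VCaP-CT, with overlap. It had 52.03, 53.2 and 57.7 CPM for VCaP-CT-ER, 41.2, 35.6 and 38.1 for VCaP-CT-BR and 47.6, 46.2 and 52.7 for VCaP-CT-BR-ER, all above VCaP-T and VCaP-CT. The rise from VCaP-CT was 2.81-fold in VCaP-CT-ER (log2 fold change 1.49 ± 0.08 (SE), edgeR adjusted p = 1.03e-12) and 2.03-fold in VCaP-CT-BR (log2 fold change 1.02 ± 0.08 (SE), edgeR adjusted p = 1.46e-09). Its 141 tested neighbours had a median of 0.26 in VCaP-CT-ER against VCaP-CT. The call of RAD51AP1 from VCaP-T to VCaP-CT (log2 fold change 0.28 ± 0.09 (SE), edgeR adjusted p = 0.00731), a step at which its neighbours had a median of 0.40, was lost without VCaP-T replicate 3 (0.0670). RAD54B (chromosome 8, 94371960 to 94475109), a motor protein that remodels the filament, had 3.99, 4.28 and 3.68 CPM for VCaP-T and 3.505, 2.904 and 3.72 for VCaP-CT, 7.500, 7.13 and 7.15 for VCaP-CT-ER, 7.79, 7.03 and 6.84 for VCaP-CT-BR and 6.36, 6.602 and 6.26 for VCaP-CT-BR-ER. The 9 libraries grown out under an antiandrogen lay above the 6 others, and RAD54B rose from VCaP-CT to VCaP-CT-ER (log2 fold change 1.05 ± 0.10 (SE), edgeR adjusted p = 1.27e-08) and to VCaP-CT-BR (log2 fold change 1.08 ± 0.10 (SE), edgeR adjusted p = 2.12e-08). Of its exonic bases 59.1% are shared with FSBP. RAD54L, the close relative of RAD54B, rose at each step, with means of 10.4 CPM for VCaP-T, 16.8 for VCaP-CT, 28.6 for VCaP-CT-ER, 22.2 for VCaP-CT-BR and 29.6 for VCaP-CT-BR-ER. RAD52, which anneals single strands, rose from 11.7 to 19.1 CPM from VCaP-T to VCaP-CT (log2 fold change 0.72 ± 0.07 (SE), edgeR adjusted p = 4e-09), where its 52 tested neighbours had a median of 0.49.

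The checkpoint kinases ATM and ATR sense breaks and single strands, and CHEK2 and CHEK1 act below them. CHEK2 (chromosome 22, 28687743 to 28742422) had 17.9, 17.6 and 17.4 CPM for VCaP-T, 29.8, 29.4 and 31.6 for VCaP-CT, 38.3, 37.2 and 40.95 for VCaP-CT-ER, 41.9, 41.7 and 38.1 for VCaP-CT-BR and 44.6, 41.9 and 46.3 for VCaP-CT-BR-ER. VCaP-T lay below VCaP-CT, and VCaP-CT below the other sublines, each of which overlapped the next. CHEK2 rose from VCaP-T to VCaP-CT (log2 fold change 0.79 ± 0.06 (SE), edgeR adjusted p = 6.44e-10), to VCaP-CT-ER (log2 fold change 0.31 ± 0.06 (SE), edgeR adjusted p = 0.000194) and to VCaP-CT-BR (log2 fold change 0.40 ± 0.06 (SE), edgeR adjusted p = 1.19e-05), and its neighbours had a median of −0.22 in VCaP-CT-ER. CHEK1 rose from 38.1 CPM for VCaP-T to 57.8 for VCaP-CT and was at 70.3 for VCaP-CT-BR. ATM (chromosome 11, 108222484 to 108369102) moved less. It had 40.5, 42.5 and 44.9 CPM for VCaP-T, 43.8, 42.3 and 49.9 for VCaP-CT, 57.2, 56.2 and 60.8 for VCaP-CT-ER, 52.6, 46.7 and 53.6 for VCaP-CT-BR and 56.5, 49.5 and 53.01 for VCaP-CT-BR-ER, and every subline overlapped the next in level. ATM was called in VCaP-CT-ER against VCaP-CT (log2 fold change 0.30 ± 0.07 (SE), edgeR adjusted p = 0.000748), where its 51 tested neighbours had a median of 0.31. It was not called in VCaP-CT against VCaP-T (log2 fold change 0.10 ± 0.07 (SE), edgeR adjusted p = 0.220) or in VCaP-CT-BR against VCaP-CT (log2 fold change 0.15 ± 0.07 (SE), edgeR adjusted p = 0.0784), and the latter became a call without VCaP-CT replicate 3 (0.0147) or VCaP-CT-BR replicate 2 (0.0239). The neighbours of ATM had a median of 0.201 in VCaP-CT-BR. ATR went from 38.9 and 41.5 CPM for VCaP-T and VCaP-CT to 59.8, 61.2 and 63.04 CPM in the later sublines, and its 45 tested neighbours had medians of 0.23 at the first step and 0.40 at the step to VCaP-CT-ER. All 4 kinases were called higher in VCaP-CT-ER than in VCaP-CT, where 29.6% of all tested genes were.

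At the chromatin of the break, H2AX is the histone that is phosphorylated, MDC1 its reader and TP53BP1 the factor that restrains resection. H2AX (chromosome 11, 119093854 to 119095467) had 63.7, 56.4 and 69.02 CPM for VCaP-T, 82.5, 93.4 and 72.4 for VCaP-CT, 155.5, 136.5 and 118.2 for VCaP-CT-ER, 80.5, 101.4 and 100.3 for VCaP-CT-BR and 125.6, 132.0 and 120.2 for VCaP-CT-BR-ER. VCaP-T lay below all others, and the spread within sublines was wide. H2AX rose from VCaP-CT to VCaP-CT-ER (log2 fold change 0.67 ± 0.10 (SE), edgeR adjusted p = 5.67e-06) and at the later enzalutamide step (log2 fold change 0.43 ± 0.10 (SE), edgeR adjusted p = 0.00143), and its 89 tested neighbours had a median of 0.34 in VCaP-CT-ER. Against VCaP-CT, VCaP-CT-BR was not called (log2 fold change 0.17 ± 0.10 (SE), edgeR adjusted p = 0.170), but it was called without VCaP-CT replicate 2 (0.0427) or VCaP-CT-BR replicate 1 (0.0336). TP53BP1 rose from 53.5 CPM for VCaP-T to 81.9 for VCaP-CT (log2 fold change 0.62 ± 0.05 (SE), edgeR adjusted p = 9.16e-10), with a median of 0.23 for its neighbours, and was highest in VCaP-CT-BR-ER, at 99.6. MDC1, on chromosome 6 from 30699807 to 30717889, is listed at 0. Of 71 other protein-coding genes within 1 Mb of it, 52 (73.2%) were also at 0 in all libraries, among them TUBB, FLOT1 and DHX16, against 11.2% of 19721 other protein-coding genes. The value of MDC1 therefore cannot be read as a level.

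Of the 7 listed proteins of the Fanconi core complex and UBE2T, 4 were called higher and 2 lower from VCaP-T to VCaP-CT, where 33.1% and 32.2% of all tested genes were. In VCaP-CT-ER 4 were called higher and 1 lower than in VCaP-CT, against 29.6% and 31.2% of all genes, and in VCaP-CT-BR 4 higher and 2 lower, against 26.1% and 27.0%. FANCA (chromosome 16, 89737549 to 89816657), a scaffold of the complex, had 9.55, 10.6 and 9.18 CPM for VCaP-T, 16.99, 18.7 and 17.1 for VCaP-CT, 25.95, 25.3 and 24.6 for VCaP-CT-ER, 20.5, 20.6 and 20.2 for VCaP-CT-BR and 24.8, 23.8 and 23.8 for VCaP-CT-BR-ER. VCaP-T lay below all others, and only the enzalutamide-grown sublines overlapped each other. FANCA rose from VCaP-T to VCaP-CT (log2 fold change 0.86 ± 0.07 (SE), edgeR adjusted p = 4.36e-10) and to VCaP-CT-ER (log2 fold change 0.47 ± 0.06 (SE), edgeR adjusted p = 1.68e-06), and the smaller rise to VCaP-CT-BR (log2 fold change 0.20 ± 0.06 (SE), edgeR adjusted p = 0.0138) was lost without VCaP-CT replicate 3 (0.05995). The neighbours of FANCA had medians of 0.21 at the first step and −0.27 in VCaP-CT-BR. FANCG, the member of the core with the most counts per length, went from 72.3 CPM for VCaP-T to 117.2 for VCaP-CT.

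FANCB (chromosome X, 14835961 to 14873069), on the X chromosome and part of the catalytic module with FANCL, had 3.47, 3.603 and 3.99 CPM for VCaP-T, 5.67, 4.71 and 6.89 for VCaP-CT, 12.5, 10.9 and 12.1 for VCaP-CT-ER, 14.98, 12.8 and 14.2 for VCaP-CT-BR and 14.04, 13.1 and 14.2 for VCaP-CT-BR-ER. Its sublines were ordered without overlap up to VCaP-CT-ER, and the bicalutamide-derived sublines overlapped. FANCB rose by 1.26 on the log2 scale from VCaP-CT to VCaP-CT-BR (SE 0.11, edgeR adjusted p = 3.65e-09) and by 0.99 to VCaP-CT-ER (SE 0.11, edgeR adjusted p = 7.4e-08), where its 53 tested neighbours had a median of 0.33. FANCL, the ubiquitin ligase of the same module, was called at none of the 4 steps by edgeR, with log2 fold changes of 0.07, −0.13, 0.12 and −0.06 and unadjusted p above 0.05, and DESeq2 called it at none either. Its neighbours had a median of −0.36 at the first step. The 95% interval of the change of FANCL from VCaP-CT to VCaP-CT-BR was −0.05 to 0.29. UBE2T, the ubiquitin-conjugating enzyme, was called once, higher in VCaP-CT-BR than in VCaP-CT (log2 fold change 0.37 ± 0.08 (SE), edgeR adjusted p = 0.000609), where its neighbours had a median of −0.24.

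FANCM (chromosome 14, 45135940 to 45200890), the translocase that anchors the core to DNA, had 11.4, 11.8 and 12.1 CPM for VCaP-T, 10.2, 9.13 and 10.4 for VCaP-CT, 17.8, 17.4 and 19.3 for VCaP-CT-ER, 22.8, 21.6 and 22.3 for VCaP-CT-BR and 16.5, 15.5 and 15.4 for VCaP-CT-BR-ER, with no overlap between sublines next to each other in level. FANCM rose from VCaP-CT to VCaP-CT-BR (log2 fold change 1.15 ± 0.07 (SE), edgeR adjusted p = 2.63e-11) and to VCaP-CT-ER (log2 fold change 0.82 ± 0.07 (SE), edgeR adjusted p = 1.82e-09) and fell at the later enzalutamide step (log2 fold change −0.49 ± 0.07 (SE), edgeR adjusted p = 4.09e-06). The 28 tested genes within 5 Mb of FANCM had medians of 0.39 and 0.48 at these rises. FANCC (chromosome 9, 95099054 to 95426796), another core protein, had 29.9, 31.1 and 31.5 CPM for VCaP-T, 22.1, 23.7 and 21.9 for VCaP-CT, 34.3, 33.2 and 33.3 for VCaP-CT-ER, 24.9, 25.4 and 24.8 for VCaP-CT-BR and 32.6, 29.4 and 31.5 for VCaP-CT-BR-ER. VCaP-CT lay below VCaP-CT-BR, both lay below VCaP-T and VCaP-CT-BR-ER, which overlapped, and VCaP-CT-ER lay above all. FANCC fell from VCaP-T to VCaP-CT (log2 fold change −0.44 ± 0.06 (SE), edgeR adjusted p = 6.8e-07), where its 88 tested neighbours had a median of −0.50, and rose to VCaP-CT-ER (log2 fold change 0.52 ± 0.06 (SE), edgeR adjusted p = 5.8e-08), while VCaP-CT-BR was not called (log2 fold change 0.13 ± 0.06 (SE), edgeR adjusted p = 0.0596) except without VCaP-CT replicate 2 (0.0259).

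FANCE (chromosome 6, 35452361 to 35467103), which links the core to FANCD2, was the only member called lower in VCaP-CT-ER than in VCaP-CT. It had 23.3, 22.1 and 22.7 CPM for VCaP-T, 24.4, 26.7 and 26.8 for VCaP-CT and 19.6, 21.4 and 21.4 for VCaP-CT-BR. In VCaP-CT-ER it had 12.7, 13.8 and 11.7 CPM and in VCaP-CT-BR-ER 12.1, 12.3 and 10.9 CPM. These 2 sublines overlapped and lay below all others, and the VCaP-CT libraries lay above all others. FANCE fell from VCaP-CT to VCaP-CT-ER (log2 fold change −1.08 ± 0.07 (SE), edgeR adjusted p = 2.87e-11), at the later enzalutamide step (log2 fold change −0.82 ± 0.07 (SE), edgeR adjusted p = 9.96e-09) and, less, from VCaP-CT to VCaP-CT-BR (log2 fold change −0.34 ± 0.07 (SE), edgeR adjusted p = 0.000334). Genes around FANCE fell too, with a median log2 fold change of −0.52 at the step to VCaP-CT-ER and −0.38 at the later enzalutamide step over 86 tested neighbours. Its call from VCaP-T to VCaP-CT (log2 fold change 0.20 ± 0.07 (SE), edgeR adjusted p = 0.0134) was lost without VCaP-T replicate 3 (0.0536), VCaP-CT replicate 2 (0.0510) or VCaP-CT replicate 3 (0.0680).

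Both genes of the pair that the core complex ubiquitinates rose from VCaP-T to VCaP-CT, FANCD2 (log2 fold change 0.80) more than FANCI (0.21). FANCD2 (chromosome 3, 10026414 to 10101930) had 42.4, 45.5 and 45.7 CPM for VCaP-T, 78.2, 74.1 and 78.2 for VCaP-CT, 100.8, 100.4 and 101.1 for VCaP-CT-ER, 112.0, 102.8 and 107.9 for VCaP-CT-BR and 117.1, 110.3 and 116.0 for VCaP-CT-BR-ER. VCaP-T, VCaP-CT, VCaP-CT-ER and the bicalutamide-derived sublines followed each other upwards, and only the last 2 sublines overlapped. FANCD2 rose from VCaP-T to VCaP-CT (log2 fold change 0.80 ± 0.05 (SE), edgeR adjusted p = 9.6e-12), where its 81 tested neighbours had a median of 0.42, and rose further to VCaP-CT-ER (log2 fold change 0.34 ± 0.05 (SE), edgeR adjusted p = 3.68e-06) and VCaP-CT-BR (log2 fold change 0.47 ± 0.05 (SE), edgeR adjusted p = 7.43e-08). FANCI, its partner, rose from 133.7 CPM for VCaP-T to 153.7 for VCaP-CT, 207.5 for VCaP-CT-ER and 211.0 for VCaP-CT-BR, each a called change from the subline before it in the derivation.

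POLQ (chromosome 3, 121431427 to 121546641), the polymerase of the error-prone end joining that serves as a backup for recombination, separated the sublines into levels. It had 13.4, 16.01 and 16.6 CPM for VCaP-T, 21.6, 19.2 and 19.3 for VCaP-CT, 47.2, 46.8 and 47.7 for VCaP-CT-ER, 46.4, 43.9 and 44.9 for VCaP-CT-BR and 46.99, 41.4 and 44.99 for VCaP-CT-BR-ER. The lowest of the 9 libraries grown out under an antiandrogen, at 41.4 CPM, lay above the highest of the 6 others, at 21.6 CPM. POLQ rose 2.28-fold from VCaP-CT to VCaP-CT-ER (log2 fold change 1.19 ± 0.07 (SE), edgeR adjusted p = 4.99e-12) and 2.23-fold to VCaP-CT-BR (log2 fold change 1.15 ± 0.07 (SE), edgeR adjusted p = 2.95e-11), and its 71 tested neighbours had a median log2 fold change of 0.32 in VCaP-CT-ER. PARP1 (chromosome 1, 226360691 to 226408079), the target of PARP inhibitors, moved at another step. It had 274.7, 288.8 and 285.9 CPM for VCaP-T, 304.7, 295.0 and 285.5 for VCaP-CT, 314.4, 317.4 and 329.7 for VCaP-CT-ER, 281.9, 278.0 and 272.4 for VCaP-CT-BR and 375.7, 368.7 and 372.9 for VCaP-CT-BR-ER. The VCaP-CT-BR-ER libraries lay above all others, after a rise of 1.35-fold from VCaP-CT-BR (log2 fold change 0.43 ± 0.04 (SE), edgeR adjusted p = 4.34e-08). The small fall of PARP1 from VCaP-CT to VCaP-CT-BR (log2 fold change −0.11 ± 0.04 (SE), edgeR adjusted p = 0.0392) was lost without VCaP-CT replicate 1 (0.244) or 2 (0.102) or VCaP-CT-BR replicate 2 (0.0768) or 3 (0.143). CDK12 (chromosome 17, 39461511 to 39564907), the kinase that sustains transcription of long repair genes, stayed within 86.1 to 111 CPM over all 15 libraries. It had 86.1, 91.9 and 89.8 CPM for VCaP-T and 92.2, 93.9 and 97.9 for VCaP-CT, 100.3, 96.4 and 102.1 for VCaP-CT-ER, 105.2, 105.7 and 110.6 for VCaP-CT-BR and 110.3, 105.1 and 108.5 for VCaP-CT-BR-ER. VCaP-T lay below all others and both bicalutamide-derived sublines overlapped each other above the rest. Of the 4 steps, only that to VCaP-CT-BR was called (log2 fold change 0.16 ± 0.05 (SE), edgeR adjusted p = 0.00610). By counts per kilobase of exons, H2AX (62.3 CPM per kb over the 15 libraries), PARP1 (43.2) and FANCG (30.2) had the highest values. RAD51B (0.395) and RAD50 (0.312) had the lowest. The length includes bases shared with other genes, on which no fragments were counted. These are 79.7% of the exonic bases of RAD50, so that its rank cannot be read as a level.

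Enzalutamide-grown cells were derived from 2 backgrounds, and these steps share no library. From VCaP-CT, 28 members were called higher, and of these 12 were also called higher from VCaP-CT-BR, 7 were called lower there and 9 were not called, which is 42.9%, 25% and 32.1% of them. Among the 5811 genes of the whole table called higher from VCaP-CT, 34.4% were also called higher from VCaP-CT-BR, 17.2% lower and 48.5% not. The 12 included BRCA1, RAD51AP1 and H2AX, and 4 of them lost their call from VCaP-CT-BR without single libraries, namely RAD51B as given above, XRCC3 without VCaP-CT-BR replicate 1 (edgeR adjusted p = 0.0726), EXO1 without VCaP-CT-BR-ER replicate 1 (0.0564) and MRE11 without replicate 2 or 3 of VCaP-CT-BR or 1 or 3 of VCaP-CT-BR-ER (0.0531 to 0.138). The 7 were BRCA2, BRIP1, XRCC2, BLM, CHEK1, FANCI and FANCM. Of these, CHEK1 lost its fall without VCaP-CT-BR-ER replicate 2 (edgeR adjusted p = 0.0974), FANCI without replicate 1 or 3 of VCaP-CT-BR or 1 or 2 of VCaP-CT-BR-ER (0.05998 to 0.271) and BRIP1 without replicate 1 or 3 of VCaP-CT-BR or 2 or 3 of VCaP-CT-BR-ER (0.0890 to 0.226). Only FANCE was called lower at both steps. The difference between the steps, tested as an interaction, was called lower in 23 members and higher in 3, against 24.5% and 25.2% of all tested genes, with a median of −0.29 against 0.01 over all genes. It was −1.31 for FANCM (SE 0.10, edgeR adjusted p = 4.77e-10), −1.22 for RAD54B, −1.20 for POLQ, −1.14 for RAD51AP1, −1.11 for XRCC2 and −1.02 for BRCA2. The medians of their neighbours for this difference were −0.58 for FANCM, −0.29 for POLQ, −0.25 for XRCC2 and −0.33 for BRCA2, and within 0.2 for RAD54B and RAD51AP1. A difference called and of at least 2-fold was found lower in 7 members and higher in 0, against 6.90% and 8.93% of all tested genes. PARP1 had 0.36 (SE 0.06, edgeR adjusted p = 3.37e-05) and TP53BP1 0.24 (SE 0.07, edgeR adjusted p = 0.00828), rising more in the bicalutamide background. The starting points differed, since 26 members were called higher in VCaP-CT-BR than in VCaP-CT. The difference between the steps uses the libraries of that comparison too, and a higher level in VCaP-CT-BR than in VCaP-CT enters it as a negative part. The 2 results are therefore not independent. The end levels overlapped in some members, such as BRCA1, at 67.4 ± 3.105 CPM for VCaP-CT-ER against 68.5 ± 5.03 CPM for VCaP-CT-BR-ER, and POLQ, at 47.2 ± 0.454 against 44.4 ± 2.85 CPM (SD, n = 3 each). The same difference was called lower in 44 of 54 G2/M genes and 17 of 39 S-phase genes, and their part in it was not tested.

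**Figure D5:**
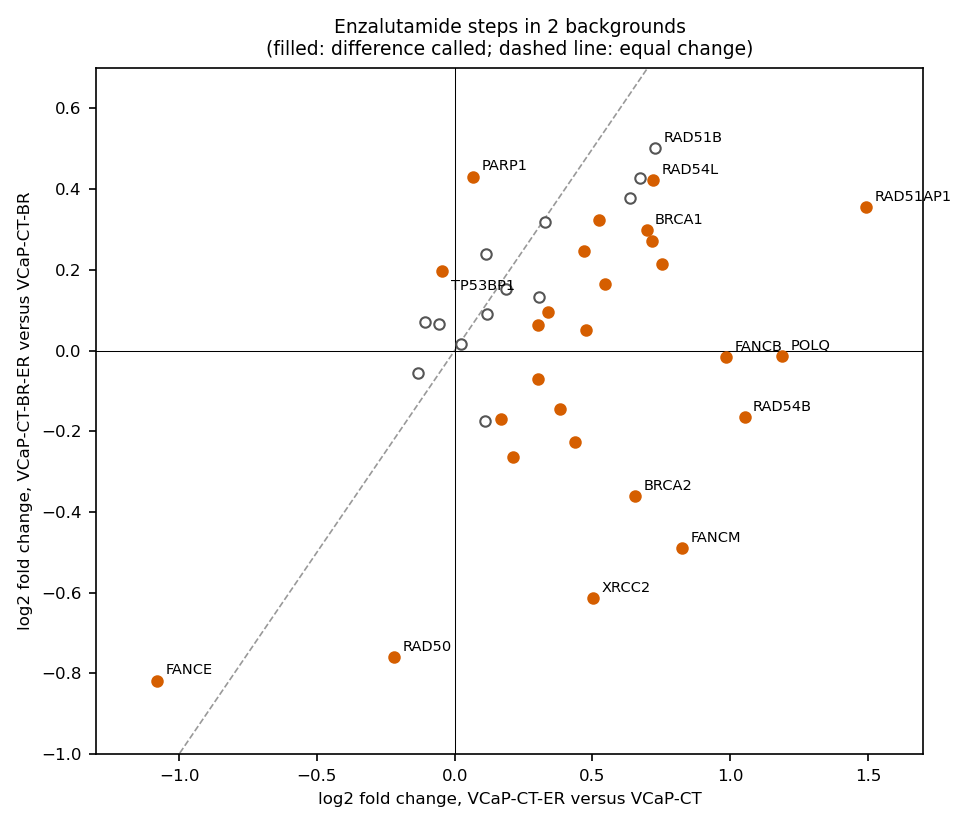
Log2 fold change of each of the 39 tested repair genes at the enzalutamide step from VCaP-CT (horizontal) and from VCaP-CT-BR (vertical), with filled points where the difference was called and a dashed line of equal change. Most filled points lie to the right of and below the line, FANCE is lowest at both steps, and PARP1 and TP53BP1 lie above the line.

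A further 52 genes of the same pathways gave 51 tested genes. Of these 12 were called higher and 15 lower from VCaP-T to VCaP-CT (23.5% and 29.4%), against 33.1% and 32.2% of all tested genes. At the step to VCaP-CT-ER 30 and 8 were called (58.8% and 15.7%), against 29.6% and 31.2%. At the step to VCaP-CT-BR 30 and 11 were called (58.8% and 21.6%), against 26.1% and 27.0%. At the later enzalutamide step 11 and 14 were called (21.6% and 27.5%), against 21.2% and 21.7%. The median log2 fold changes of the 51 genes were −0.03, 0.22, 0.22 and 0.03 in this order. REV3L, the catalytic subunit of translesion polymerase zeta, fell by 1.02 on the log2 scale from VCaP-T to VCaP-CT and rose by 1.06 to VCaP-CT-ER and by 1.17 to VCaP-CT-BR. GEN1, a resolvase of joined molecules, rose by 0.70 and 1.02 at the latter 2 comparisons, and PARPBP, an antirecombination factor, by 0.72 and 1.17. MUS81, the nuclease of another resolvase, fell at all 4 steps, with log2 fold changes of −0.64, −0.60, −0.32 and −0.54, and SHLD1, a subunit of shieldin, which protects ends from resection, did so with −0.61, −0.74, −0.48 and −0.53. These 5 genes were chosen after their values were seen.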

How the data were processed

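RNA-seq libraries of 5 VCaP sublines, 3 replicates each, were used as deposited. The authors aligned reads to GRCh38 with STAR 2.5.4b and deposited raw fragment counts per gene from featureCounts 1.6.2 (GENCODE 28, without strand). Fragments over more than 1 gene were left uncounted, so that genes sharing exonic bases read low. Of 58381 identifiers, 57754 (98.926%) matched a symbol of GENCODE 44, and 627 did not.

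Levels are counts divided by the library total (CPM). Changes were tested with edgeR 4.0.16 in R 4.3.3 (filterByExpr at a minimum count of 10, TMM scaling, a term per subline over 15 libraries, quasi-likelihood F tests, 19621 genes). Benjamini-Hochberg adjusted p below 0.05 was called, and log2 fold changes are given ± SE. Errors of levels are SD over 3 libraries, and the floor covers counting error only. The fit was tested on simulated counts of 18957 genes, drawn with the same spread for every gene. Between VCaP-T and VCaP-CT it called 61 of 100 genes changed by 0.5 on the log2 scale. It called 82 of 100 genes changed by 1, and 5 unchanged genes. Real genes need not share a spread, so that these counts are not error rates for the libraries. S-phase and G2/M genes came from Seurat 5.3.0. Replicate numbers did not pair libraries, with correlations of deviations of −0.43 to 0.41 between same-numbered libraries.

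The members and lists were chosen with earlier results of these data known. Values in full are given for BRCA1, BRCA2, PALB2, ATM, CDK12, CHEK2, PARP1 and FANCA, and for the 3 called genes with the largest rise and the 3 with the largest fall at each step, at a mean of at least 1 CPM. Other members are given by means. Alternatives were DESeq2 1.42.0, RLE or upper quartile scaling, other filters, fits of the compared sublines, a 2-fold minimum, a replicate block and each library left out. Leaving out members that share exonic bases was added after seeing the data. Figures were drawn with matplotlib 3.10.9.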

Additional observations from a re-analysis of the deposited data

Results flagged for a closer look

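For 26 members the change at the enzalutamide step differed between the bicalutamide-resistant background and VCaP-CT. The call was by an edgeR interaction term with a Benjamini-Hochberg adjusted p below 0.05, against 25.2% of all tested genes called higher and 24.5% lower. Each subline was derived once, so that effects of the agent and of the single derivation cannot be told apart. The values are the log2 fold change from VCaP-CT-BR minus that from VCaP-CT. They are not independent of the comparison of VCaP-CT-BR with VCaP-CT, in which 26 members were called higher, since they use the same libraries. Opposite calls at both steps were made for FANCM (−1.31), XRCC2 (−1.11), BRCA2 (−1.02), BRIP1 (−0.66), FANCI (−0.53), BLM (−0.47) and CHEK1 (−0.34). Differences past 0.5 in size without opposite calls were found for RAD54B (−1.22), POLQ (−1.20), RAD51AP1 (−1.14), FANCB (−1.002), RAD50 (−0.54) and EXO1 (−0.54). Smaller negative differences were found for RBBP8 (−0.44), ATR (−0.43), BRCA1 (−0.40), MRE11 (−0.38), RAD51C (−0.37), RAD54L (−0.30), FANCD2 (−0.24), ATM (−0.24), FANCA (−0.22) and FANCC (−0.20). Positive differences were found for FANCE (0.26), PARP1 (0.36) and TP53BP1 (0.24). Of these, ATM, FANCA, FANCC, FANCE, RAD50 and RAD54L lost the call without single libraries, between 5 and 9 of the 12 of the 4 compared sublines, with adjusted p of up to 0.149. The genes within 5 Mb had a median of this difference past 0.2 in size around FANCM (−0.58), XRCC2 (−0.25), BRCA2 (−0.33), POLQ (−0.29), MRE11 (−0.43), BLM (−0.22), ATM (−0.37), ATR (−0.48), CHEK1 (−0.25) and FANCA (0.46). Among G2/M genes the median of the same difference was −0.63, and among S-phase genes −0.15. The part of these neighbours and of the cell cycle in the differences was not tested.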

How the results depend on the processing

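Of 2769 alternative values of single members, 2620 kept their direction and side of the threshold, 100 lost and 49 gained a call, and 0 changed sign with a call. With an estimated change of at least 2-fold required, the members called higher and lower were 0 and 0 at the step from VCaP-T to VCaP-CT, 3 and 1 at the step to VCaP-CT-ER, 6 and 0 at the step to VCaP-CT-BR, 0 and 0 at the later enzalutamide step, and 0 and 7 for the difference between the enzalutamide steps. With 1 library left out, the counts called higher were 20 to 23, 28 to 29, 26 to 28, 13 to 16 and 2 to 3 in this order, and those called lower 8 to 10, 1 to 2, 3 to 5, 6 to 9 and 18 to 22. The 2 lower in VCaP-CT-ER arose without VCaP-CT replicate 2, where PALB2 joined FANCE. The 3 lower in VCaP-CT-BR arose without VCaP-CT-BR replicate 2, where PARP1 (adjusted p = 0.0768, edgeR) and RAD51B (0.0869) were lost. Under the other scalings, filters, tools and fits, the counts called higher were 22 to 25, 28 to 29, 25 to 27, 15 to 16 and 2 to 3, and those called lower 8 to 10, 1, 4 to 6, 7 to 10 and 19 to 24. Among only the 31 members that share under 10% of their exonic bases, a smaller list, 19, 23, 21, 11 and 2 were called higher and 8, 1, 5, 8 and 18 lower. No scaling moved the median of all genes by more than 0.042 on the log2 scale.

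The replicate block changed 6 single calls of edgeR. RAD52 (adjusted p = 0.0434) and ATM (0.0363) were called in VCaP-CT-BR against VCaP-CT, BARD1 at the later enzalutamide step (0.0355) and in the difference between the enzalutamide steps (0.0162), and RAD50 (0.0599) and FANCC (0.0501) were lost in that difference. The numbers only name the libraries, since nothing ties same-numbered libraries together.

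Depth gave 59 counts or more to each tested member in each library. Low counts limit RAD51B and RAD50, and some small changes were close to the threshold. PARP1 in VCaP-CT-BR and FANCI at the later enzalutamide step each lost their call when any of 4 libraries was left out.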

Other observations

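Among other genes of these pathways, REV3L was called at all 4 steps and had a difference between the enzalutamide steps of −1.53 on the log2 scale (edgeR, SE 0.13, adjusted p = 3.48e-09). WRN, a helicase of replication forks, had log2 fold changes of −0.70 at the step from VCaP-T to VCaP-CT, 0.88 at the step to VCaP-CT-ER, 0.46 at the step to VCaP-CT-BR, and 0.69 at the later enzalutamide step. RPA3, a subunit of the protein that coats single strands, had −0.65, 0.88 and 0.33 at the first 3 of these steps, and all 7 changes were called by edgeR. Over the 51 tested genes, the difference between the enzalutamide steps was called lower in 26 and higher in 10, with a median of −0.21. Over all tested genes the shares were 24.5% lower and 25.2% higher, with a median of 0.01. WRN and RPA3 were chosen after their values were seen.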
